A study of Homo sapiens with 15 samples.

Results

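Genes whose names consist of LINC and a number, the naming class given to long intergenic noncoding RNA genes, were taken as members if they occurred in both deposited tables once the row suffix .primary was removed. This gave 138 genes of the 12482 genes that both tables hold. In the 22Rv1 table they occupied 158 of 22542 rows, 36 without the suffix (plain rows) and 122 with it. In the LNCaP table they occupied 170 of 22169 rows, 44 plain and 126 .primary. Neither the name rule nor the choice of tables used a measured value. The meaning of the suffix is not given in the sources used here, and the 2 kinds of row were kept apart throughout.

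The RNA came from 22Rv1 and LNCaP, both established human prostate cancer cell lines, and was measured by RNA immunoprecipitation sequencing, in which an antibody pulls down a protein from fixed cells and the RNA that comes with it is sequenced. The 22Rv1 groups were Brg1 antibody (2 libraries), Sfpq antibody (2), IgG that binds neither protein (3) and unprecipitated input RNA (2). In LNCaP there were 2 libraries each of Brg1, IgG and input. No treatment, knockdown or genetic change is labelled for any group, all cells were fixed with formaldehyde, and the libraries were depleted of ribosomal RNA. The labels mark libraries of a group by letters A, B and C and do not say whether these are separate cultures, so the p-values below rest on the spread between libraries, which may be technical. The fits (limma, eBayes with trend) take this spread in part from rows of similar level, so it need not be that of the row itself. In LNCaP the Brg1 differences of LINC00910, LINC00963 and LINC01237.primary all had an SE of 0.254.

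Brg1 (gene SMARCA4) is the motor subunit of SWI/SNF complexes, which slide and evict nucleosomes, and Sfpq is a nuclear RNA-binding protein found in paraspeckles. Long intergenic noncoding RNAs are transcribed from loci outside protein-coding genes, usually at low levels, and many are spliced, polyadenylated and retained in the nucleus near chromatin. An RNA precipitated from fixed cells may touch the protein directly or sit near it in a complex, and a share of reads does not tell these apart.

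The 4 members that carried the leading signals below are shown first by the genomic bases around their RefSeq start sites (GRCh38.p14), so that each can be recognised. They are LINC00910 (highest of the plain rows with Brg1), LINC01374 (highest of the .primary rows with Sfpq), LINC01667 (highest of the .primary rows with Brg1 in LNCaP) and LINC01184 (highest of the .primary rows with IgG). The lower-case letters are the 50 bases before the annotated start, the capitals are the first 50 transcribed bases, and each is written 5′ to 3′ on the strand of the gene.
LINC00910 (chr17:43388849-43388948, minus strand): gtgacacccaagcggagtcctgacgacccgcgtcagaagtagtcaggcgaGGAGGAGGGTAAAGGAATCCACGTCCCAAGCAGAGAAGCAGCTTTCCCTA
LINC01374 (chr10:89853856-89853955, plus strand): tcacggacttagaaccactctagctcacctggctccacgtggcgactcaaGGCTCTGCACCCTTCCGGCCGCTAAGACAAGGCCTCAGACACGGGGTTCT
LINC01667 (chr21:9821012-9821111, minus strand): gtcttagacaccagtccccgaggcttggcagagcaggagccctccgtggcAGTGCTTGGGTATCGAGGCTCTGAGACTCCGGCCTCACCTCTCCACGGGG
LINC01184, listed in RefSeq as SLC12A2-DT (chr5:128083126-128083225, minus strand): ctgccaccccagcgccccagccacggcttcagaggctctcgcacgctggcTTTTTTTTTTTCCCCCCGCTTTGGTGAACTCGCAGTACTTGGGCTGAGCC

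The deposited values were whole multiples of 1 factor per library, so reads were recovered and are given as reads in 1000000 of the library's recovered reads (rpm). Recovered totals ran from 45259907 to 47531308 reads for Brg1 and from 7139669 to 7352226 for Sfpq in 22Rv1, and from 6367908 to 6927440 for Brg1 in LNCaP. The inputs held 16037423 and 47871438 reads in 22Rv1 and 7054033 to 7506724 in LNCaP. IgG was much thinner, with 490879 to 4424105 reads in 22Rv1 and only 22184 and 46297 in LNCaP, and its libraries ranked the rows differently (Spearman 0.306 to 0.505 within a line, against 0.940 to 0.979 within the other groups). The kind of row itself moved with the groups: .primary rows took 64.2% ± 2.07 (SD, n = 2) of the 22Rv1 Brg1 reads, 36.5% ± 2.44 of input and 30.4% ± 4.20 of Sfpq, and 55.7% ± 6.86 of the LNCaP Brg1 reads against 38.7% ± 5.02 of input. Non-specific IgG also lay above input on average, at 53.7% ± 12.7 (n = 3) in 22Rv1 and 66.8% ± 0.05 (n = 2) in LNCaP. The higher .primary share was thus not limited to Brg1. The part of this shift in the member results was not tested. Calls of the main fits are therefore set beside the share called over all rows of that kind, or of both kinds together for IgG. Recounts under other settings, counts of non-overlapping libraries, counts shared by the lines and counts of input gaps have no such figure beside them. Of 10 luminal prostate markers, 7 were in the 22Rv1 table (KLK3, KLK2 and FOLH1 were not), with 238 to 249 rpm summed in input, and all 10 were in the LNCaP table, with 4919 to 4994 rpm. None of 4 leukocyte markers and 1 of 5 fibroblast markers (COL1A1) were in either table, and of 3 endothelial markers VWF was in the LNCaP table alone.

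Most members were scarce in input, and a few stood far above the rest. Mean input levels of the .primary rows ran from 2.01 rpm to 112 rpm in 22Rv1 (median 7.78) and from 2.68 to 347 rpm in LNCaP (median 9.47). Plain rows ran from 2.43 to 54.9 rpm in 22Rv1 (median 10.9) and from 3.04 to 112 rpm in LNCaP (median 10.7). These are levels of whole rows, not corrected for length. In 22Rv1 the most abundant .primary row was LINC01572, at 120 and 104 rpm in the input libraries, and the most abundant plain row was LINC02210, at 55.3 and 54.6 rpm. In LNCaP these places went to LINC01374.primary, at 346 and 348 rpm, and to LINC01278, at 110 and 114 rpm.

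All members together took a larger share of the Brg1 reads than of the input reads through their .primary rows, in both lines, and the size of the gap depended on the total that was used. In 22Rv1 the .primary rows of the members held 0.324% and 0.300% of the Brg1 reads, 0.153% and 0.143% of input and 0.156% and 0.177% of Sfpq. In LNCaP they held 0.590% and 0.675% of the Brg1 reads and 0.352% and 0.303% of input. The Brg1 and input libraries did not overlap in either line, though with 2 libraries a group an exact permutation test cannot go below p = 0.333. As a share of the .primary reads alone, the gap in 22Rv1 was smaller, with 0.494% and 0.478% for Brg1 against 0.400% and 0.411% for input, and Sfpq lay above both at 0.569% and 0.529%. In LNCaP that share was 1.16% and 1.12% with Brg1 and 0.832% and 0.862% in input. LINC01667.primary alone made up 20.4% and 18.9% of the .primary member reads of the LNCaP Brg1 libraries. The largest single row of the LNCaP inputs held 10.3% (LINC02197.primary, library A) and 11.5% (LINC01374.primary, library B). The gap without such rows was not tested. The plain rows of the members held 0.0549% and 0.0540% of all 22Rv1 Brg1 reads against 0.0559% and 0.0540% of input, which overlap. As a share of the plain reads alone they held more with Brg1, at 0.160% and 0.145% against 0.0904% and 0.0829%. Of all reads, IgG gave the .primary rows of the members 0.793%, 0.653% and 0.393% in 22Rv1 and 3.19% and 2.69% in LNCaP, and single rows made up much of it, as described further on.

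In 22Rv1 nearly all .primary rows of the members that changed were higher with Brg1 than in input. Of 122 rows, 99 were called higher and 5 lower (limma, Benjamini-Hochberg adjusted p under 0.05 over all rows of the table), where 51.4% of all .primary rows were called higher and 9.76% lower. The median difference of log2(rpm + 1) was 1.15 over the members and 0.53 over all .primary rows. Antisense-named genes had a median of 0.99 and clone-named genes of 0.90 on their .primary rows, so a large positive median was shared by the other noncoding name classes. When each kind of row was divided by its own total, 39 member rows were called higher and 20 lower, and under the authors' own scaling 21 were higher and 2 lower. With the IgG libraries in the same fit no member row of either kind was called in this comparison (limma, 16 of 158 at an unadjusted p under 0.05).

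The largest .primary difference in 22Rv1 belonged to LINC01609, at 20.7 and 16.1 rpm with Brg1 and at 3.40 and 1.5 rpm in input. Both Brg1 libraries lay above both inputs, a 7.51-fold difference of means (log2 difference 2.54 ± 0.31 SE, limma adjusted p = 3.85e-06). LINC00513.primary stood at 98.6 and 85.7 rpm with Brg1 against 13 and 21.0 in input, 5.43-fold higher (adjusted p = 1.22e-07). It was at 39.8, 58.2 and 81.5 rpm with IgG, which is above input and partly near the Brg1 level. LINC02542.primary was at 36.6 and 34.5 rpm with Brg1 and at 6.60 and 9.17 rpm in input, 4.51-fold higher. Among abundant members, LINC01572.primary was at 245 and 199 rpm with Brg1 against 120 and 104 in input, 1.99-fold higher, and LINC01004.primary was at 180 and 166 rpm against 75.1 and 67.5. LINC01004.primary was also at 138, 77.7 and 116 rpm with IgG, all above input. LINC01572.primary lay above both inputs in IgG libraries A and B as well, and its level in IgG library C is not given here.

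Few .primary rows went the other way. LINC01001.primary was at 21.8 and 14.5 rpm with Brg1 and at 37.2 and 26.8 rpm in input, a log2 difference of -0.79 (adjusted p = 0.00353). LINC00106.primary was at 11.9 and 9.88 rpm against 20.0 and 17.3, and LINC01547.primary at 5.6 and 7.58 rpm against 9.78 and 12.0. LINC01001 and LINC01002 lie near the ends of chromosomes 11 and 19 (positions 127134 to 139117 and 197016 to 202209), where copies of sequence are common. Whether reads were split between such genes was not tested. LINC00641.primary, also lower (36.9 and 41.6 rpm against 45.6 and 53.4), missed the threshold (limma adjusted p = 0.0579). LINC00963.primary was slightly higher with Brg1 (22.9 and 27.2 rpm against 22.5 and 21.5) and was not called (limma adjusted p = 0.396).

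The plain rows of the members divided in both directions. With Brg1 in 22Rv1, 9 of 36 were called higher and 13 lower, where 2.43% of all plain rows were called higher and 74.3% lower. Their median log2 difference was -0.31, against -0.77 over all plain rows. When each kind of row was divided by its own total, 18 were called higher and 4 lower, so the direction of the plain rows as a set depended on that choice.

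LINC00910 led the plain rows. It was at 111 and 112 rpm with Brg1 and at 21.9 and 18.1 rpm in input, a 5.59-fold difference (log2 difference 2.43 ± 0.16 SE, adjusted p = 2.43e-08). No Brg1 library came near an input library. IgG gave 67.1, 27.4 and 18.3 rpm, which ran from the input level to a level between input and Brg1. LINC00910 lies on chromosome 17 (43369845 to 43388898, GRCh38.p14) and is annotated as a long noncoding RNA. LINC00854, which RefSeq now lists as the protein-coding gene CCDC200 on the same chromosome (43221417 to 43231269), was at 13.8 and 14.9 rpm with Brg1 and at 3.40 and 2.81 rpm in input, 4.63-fold higher. IgG gave 2.94 rpm in library A and 0 reads in libraries B and C. LINC01410 was at 5.30 and 9.92 rpm against 3.43 and 1.43.

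The plain row with the lowest Brg1 level relative to input was LINC00641, at 1.68 and 0 rpm against 8.67 and 4.68. LINC02381, a gene on chromosome 12, was at 6.75 and 4.02 rpm against 16.3 and 21.0, 3.47-fold lower (adjusted p = 4.27e-05). LINC01001 was at 8.16 and 8.04 rpm against 33.3 and 21.1, 3.35-fold lower. Of the abundant plain rows, LINC02210 (34.8 and 29.0 rpm against 55.3 and 54.6) and LINC01002 (32.5 and 31.2 against 47.9 and 58.1) were called lower, but their log2 differences turned to 0.04 and 0.10 when each kind of row was divided by its own total. LINC00174 (53.2 and 46.5 rpm against 46.8 and 44.6, adjusted p = 0.477) and LINC00205 (34.4 and 30.6 against 30.9 and 30.9, adjusted p = 0.696) overlapped input.

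**Figure D1:**
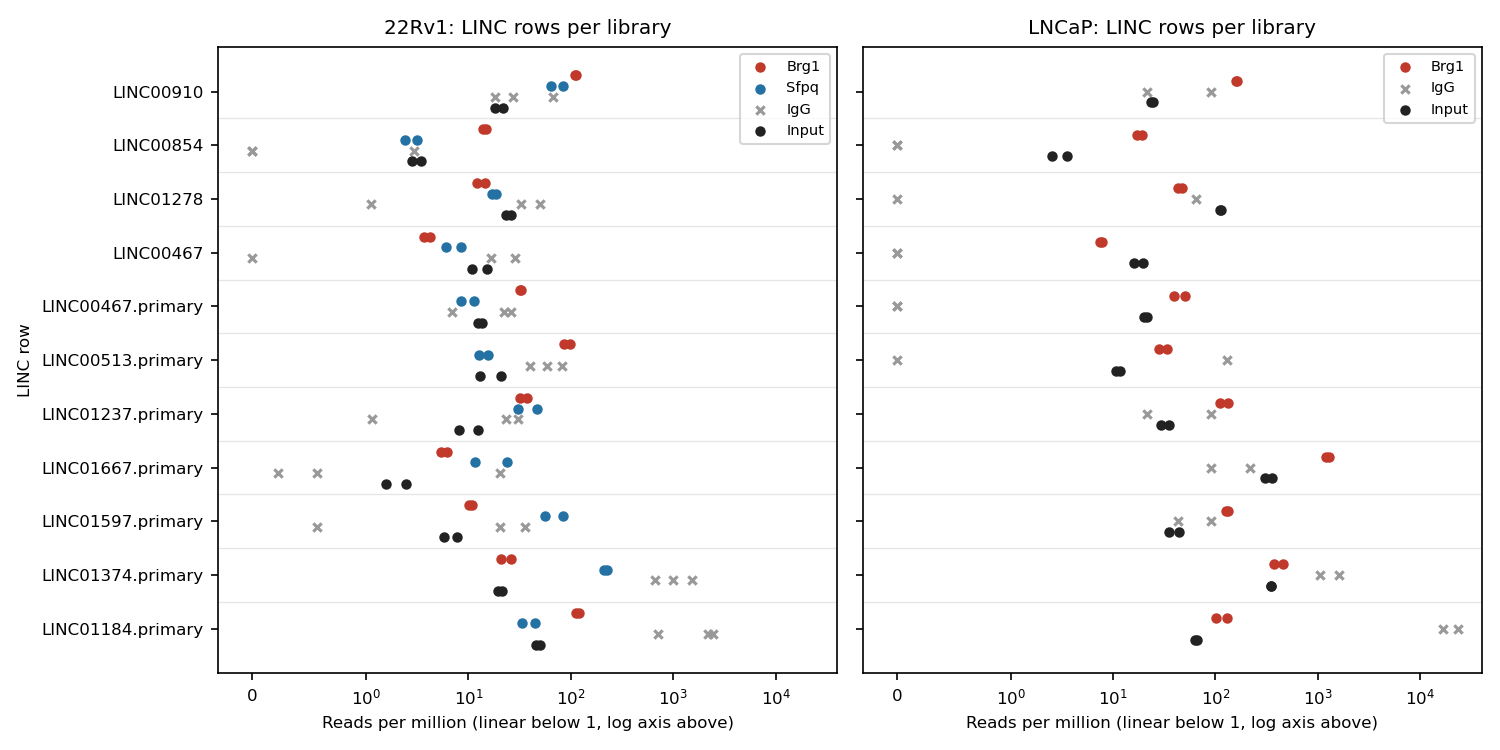
Levels in rpm (horizontal, linear below 1 and logarithmic above) of 11 LINC rows in every library of 22Rv1 (left) and LNCaP (right); each point is 1 library, circles for Brg1, Sfpq and input and crosses for IgG. LINC00910 with Brg1 lies at 111 and 112 rpm in 22Rv1 and at 164 and 160 rpm in LNCaP, to the right of input in both, while LINC01184.primary and LINC01374.primary are highest with IgG.

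In LNCaP the same split by kind of row was seen with fewer calls. Of the .primary rows, 56 of 126 were called higher with Brg1 and 8 lower, where 23.2% of all .primary rows were called higher and 8.25% lower, and the median log2 difference was 0.70, against 0.18 over all .primary rows. Of the plain rows, 5 of 44 were called higher and 9 lower, where 2.1% of all plain rows were called higher and 20% lower. With TMM factors, which scale libraries by a trimmed mean of row ratios, the .primary counts were 67 higher and 7 lower, and with each kind of row divided by its own total 29 and 16. Under the authors' own scaling, which puts the median of all .primary rows at -1.18, no .primary member row was called higher (limma, 0 at an unadjusted p under 0.05) and 41 were called lower. The count of 78 called rows fell to 14 without input library B, to 34 without input library A and to 29 with the library letter as a block, and it was 0 with the IgG libraries in the fit (limma, 47 at an unadjusted p under 0.05).

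LINC01667.primary was the most abundant member with Brg1 in LNCaP. It was at 1207 and 1277 rpm against 356 and 307 rpm in input, 3.75-fold higher (log2 difference 1.91 ± 0.27 SE, limma adjusted p = 5.06e-10). IgG gave 90.2 and 216 rpm, below input but resting on few reads, since 1 read in these libraries was 45.1 and 21.6 rpm. The gene lies on chromosome 21 (9781848 to 9821061). LINC01237.primary was at 110 and 132 rpm against 35.2 and 29.2, also 3.75-fold higher, and LINC01609.primary at 25.8 and 24.5 rpm against 6.95 and 5.59, 4.01-fold higher. LINC02197.primary (850 and 983 rpm against 361 and 311) and LINC01194.primary (202 and 228 against 89.6 and 76.5) were further abundant rows called higher. The Brg1 libraries lay above the inputs for each of these rows.

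LINC00910 again led the plain rows in LNCaP, at 164 and 160 rpm with Brg1 against 24.5 and 23.4 in input, 6.75-fold higher (log2 difference 2.70 ± 0.25 SE, adjusted p = 1.63e-23). IgG gave 90.2 and 21.6 rpm, which are 2 reads and 1 read. LINC00854 was at 17.0 and 19.1 rpm against 3.54 and 2.53, and LINC00662 at 26.9 and 24.7 rpm against 9.92 and 11.6. At the other end, LINC01106 was at 0.942 and 0 rpm with Brg1 against 17.9 and 10.5 in input (log2 difference -3.40, adjusted p = 6.84e-13). LINC02197 was at 11.8 and 8.08 rpm against 23.7 and 30.1 on its plain row, opposite to its .primary row, and LINC01278 at 46.8 and 43.5 rpm against 110 and 114. The .primary rows that led the lower calls were LINC00680 at 2.83 and 5.63 rpm against 9.50 and 12.7, LINC01001 at 9.42 and 12.0 against 24.5 and 22.2, and LINC00174 at 5.34 and 6.78 against 14.5 and 11.7. LINC00665, abundant on both of its rows, changed on neither, with 57.8 and 52.0 rpm against 65.9 and 75.8 on the plain row (adjusted p = 0.29) and 80.2 and 115 against 128 and 98.3 on the .primary row (adjusted p = 0.551).

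**Figure D2:**
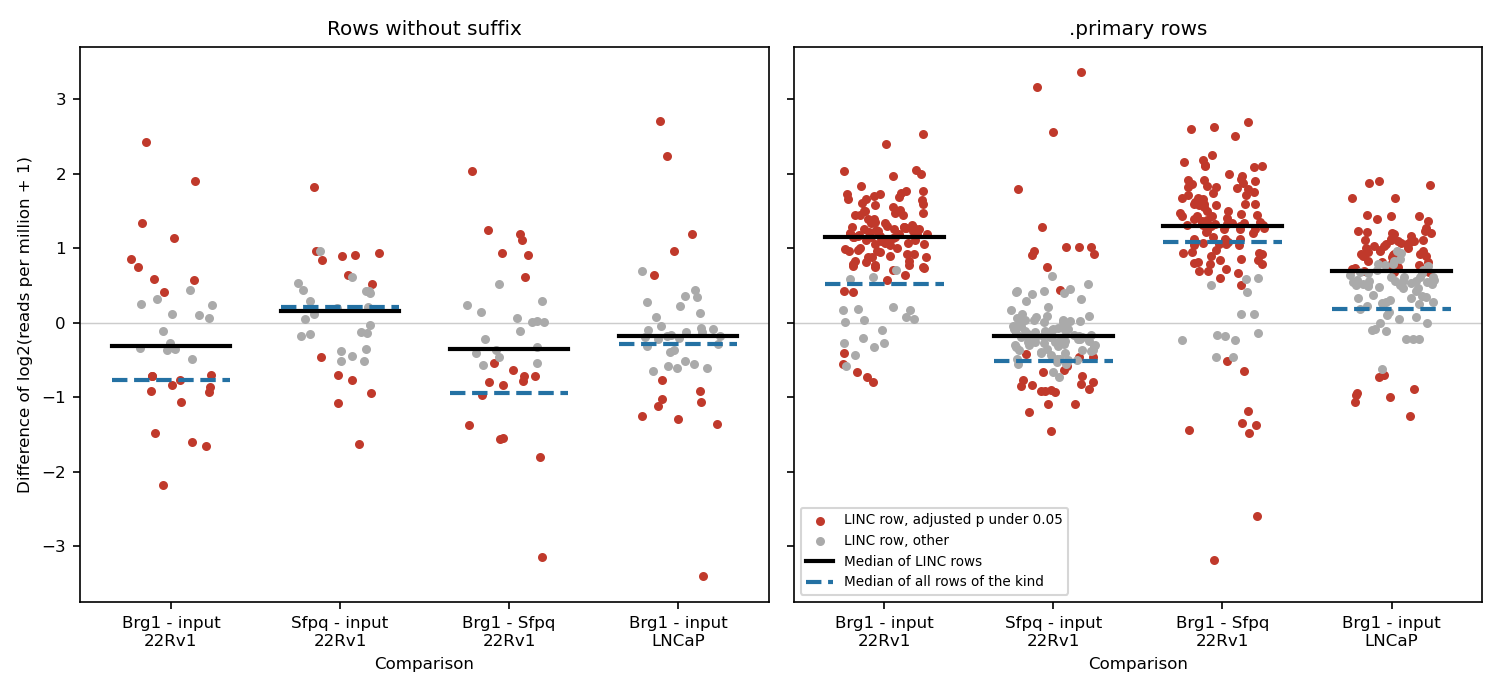
Difference of log2(rpm + 1) (vertical) of every LINC row in 4 comparisons (horizontal), plain rows on the left and .primary rows on the right; red points have an adjusted p under 0.05, the solid line is the median of the LINC rows and the dashed line that of all rows of the kind. The LINC median of the .primary rows lies at 1.15 in 22Rv1 and 0.70 in LNCaP for Brg1 against input, above the dashed lines at 0.53 and 0.18.

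The lines were set side by side without a test, because the authors scaled the tables separately. Across the 34 plain rows in both tables the Brg1 differences had Pearson's r = 0.855 and Spearman's rho = 0.865, and across the 122 .primary rows r = 0.726 and rho = 0.562. These rows share their libraries within a line, and over all rows of the series the same values were 0.699 and 0.678 for plain rows and 0.849 and 0.883 for .primary rows. Of the .primary rows, 52 were called higher in both lines, which is 52.5% of the 99 called in 22Rv1 and 96.3% of the 54 called in LNCaP. The 2 called higher in LNCaP alone, named after their values were seen, were LINC02356.primary and LINC02381.primary, the latter with log2 differences of 1.23 in LNCaP and 0.09 in 22Rv1. The .primary rows called lower in both lines were LINC00106, LINC01001 and LINC01089. Among plain rows, LINC00910, LINC00854, LINC00662, LINC00863 and LINC01297 were called higher in both lines, and LINC00265, LINC00467, LINC00963, LINC01278 and LINC01578 lower in both. No row was called in opposite directions.

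**Figure D3:**
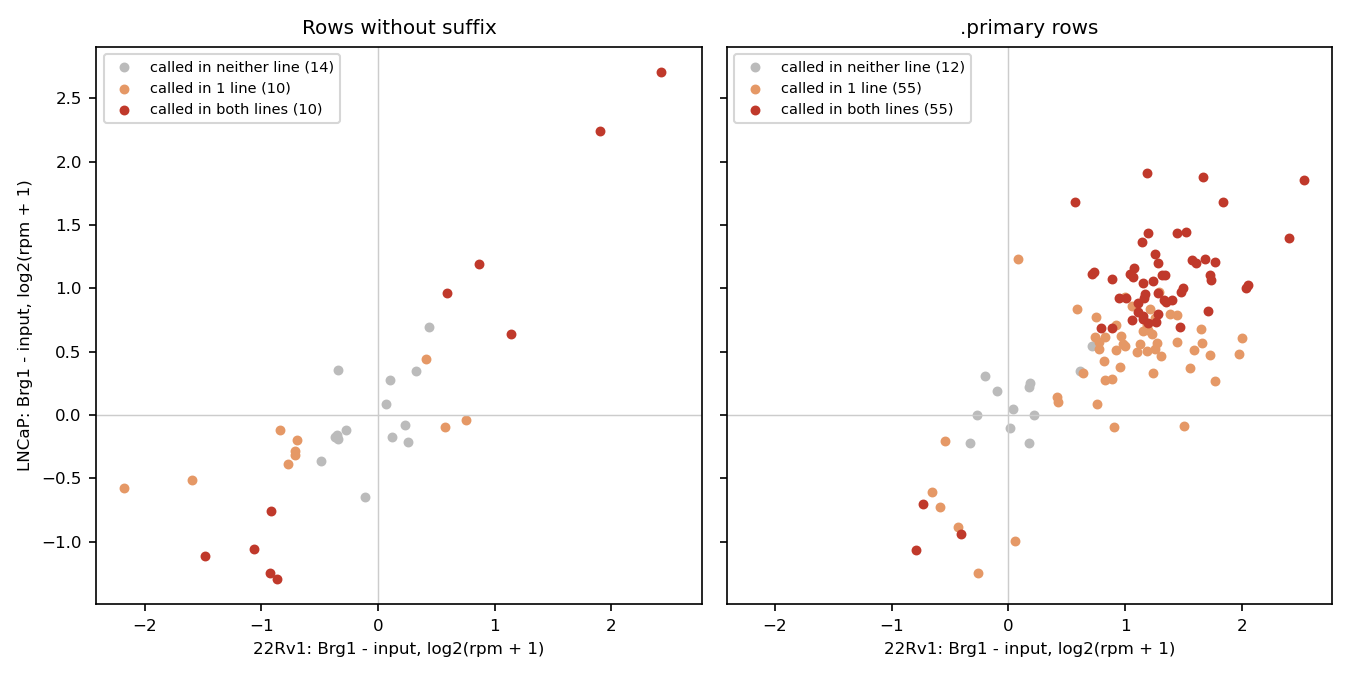
Brg1 minus input, as a difference of log2(rpm + 1), in 22Rv1 (horizontal) and LNCaP (vertical), for the 34 plain (left) and 122 .primary (right) LINC rows in both tables; colours give whether a row was called in both lines, 1 line or neither. Of the plain rows 10 were called in both lines, and of the .primary rows 55, and every one of these lies in the quadrant of matching sign.

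A minority of the members differed widely in input level between the lines. More than 2-fold higher in LNCaP were 8 of 34 plain and 32 of 122 .primary rows, and in 22Rv1 3 and 9. LINC01667.primary was at 2.01 rpm in 22Rv1 input and 331 rpm in LNCaP input, a 165-fold gap, and LINC02197.primary at 2.82 and 336 rpm. LINC01194.primary (4.03 and 83.0 rpm) and LINC01374.primary (20.3 and 347 rpm) followed. In the other direction the gaps were small, 3.53-fold for LINC00630, 3.06-fold for LINC01547, 3.0-fold for LINC00937.primary and 2.84-fold for LINC01725.primary. The Brg1 differences of these rows lay side by side in some cases and apart in others. That of LINC01667.primary was 1.19 in 22Rv1 and 1.91 in LNCaP, that of LINC02197.primary 1.52 and 1.44, and that of LINC01194.primary 1.14 and 1.36. LINC01374.primary was not called with Brg1 in either line (0.19 and 0.25), and LINC01547 was called lower in 22Rv1 alone (-0.84 and -0.12). In 22Rv1 LINC02197.primary was at 8.23 and 12.0 rpm with Brg1 against 3.09 and 2.56.

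With Sfpq the share of members called higher was near or below that of all rows, and a few single rows were far above input. Of the .primary rows in 22Rv1, 13 of 122 were called higher with Sfpq and 21 lower, where 11.8% of all .primary rows were called higher and 50.7% lower. Both Sfpq libraries lay above both inputs for 23 of the 122 .primary rows and below them for 50, and 49 overlapped. With so few libraries a group, rows can separate by order alone. Overlap of Sfpq with input was not counted over all .primary rows, so these counts do not set the members apart. The member median was -0.18 and that of all .primary rows -0.52. When each kind of row was divided by its own total, 21 were higher and 13 lower, with a median of 0.06. Of the plain rows, 8 of 36 were called higher and 6 lower, where 38.4% of all plain rows were called higher and 20.3% lower. Under the authors' own scaling the plain calls were 1 higher and 4 lower, and the .primary calls 4 and 17, and with the IgG libraries in the fit no member row was called (limma, 4 at an unadjusted p under 0.05).

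LINC01374.primary was at 211 and 226 rpm with Sfpq and at 19.3 and 21.3 rpm in input, 10.8-fold higher (log2 difference 3.37 ± 0.15 SE, adjusted p = 1.04e-09). Brg1 gave 26.2 and 20.7 rpm, which overlapped input (adjusted p = 0.291). IgG gave more than Sfpq, at 655, 1004 and 1524 rpm, so the Sfpq level lies between input and IgG. LINC01374 lies on chromosome 10 (89853906 to 89914956). LINC01597.primary, on chromosome 20 (30278906 to 30286537), was at 55.9 and 83.0 rpm with Sfpq against 7.79 and 5.74 in input, 10.3-fold higher (adjusted p = 4.62e-08). Its IgG values were 35.7, 0.571 and 20.4 rpm, all below Sfpq. LINC01667.primary was at 11.5 and 23.7 rpm with Sfpq against 2.46 and 1.56, 8.74-fold higher (adjusted p = 9.18e-06), and its IgG values were 0.226, 0.571 and 20.4 rpm.

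Of the plain rows, LINC00910 was highest with Sfpq too, at 63.4 and 83.4 rpm, 3.68-fold above input (adjusted p = 4.77e-07) and below its Brg1 level (log2 difference of Brg1 from Sfpq 0.61, adjusted p = 0.00257). LINC01547 was at 30.0 and 29.4 rpm with Sfpq against 13.9 and 15.5, and LINC02035 at 12.9 and 13.9 against 6.12 and 6.86. LINC00205, which overlapped input with Brg1, was at 55.9 and 61.3 rpm with Sfpq, 1.90-fold above input. The rows lowest with Sfpq were LINC01355 (4.06 and 2.72 rpm against 13.8 and 11.1), LINC02381 (9.24 and 7.34 against 16.3 and 21.0) and LINC01002 (23.8 and 30.5 against 47.9 and 58.1). Among .primary rows these were LINC02340 (16.1 and 14.4 rpm against 46.2 and 40.6), LINC01123 (3.36 and 3.13 against 10.4 and 7.36) and LINC00662 (2.24 and 3.94 against 8.79 and 6.36). LINC00513.primary, 5.43-fold higher with Brg1, was at 15.4 and 12.8 rpm with Sfpq (adjusted p = 0.359).

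Compared directly, Brg1 recovered most .primary rows of the members at a higher share than Sfpq did. Of 122 .primary rows 100 were called higher with Brg1 and 9 lower, where 72.8% of all .primary rows were called higher and 7.99% lower. Of 36 plain rows 7 were called higher and 13 lower, where 4.97% of all plain rows were called higher and 70.7% lower. When each kind of row was divided by its own total these counts were 40 and 19 for .primary rows and 17 and 3 for plain rows. The largest .primary gaps towards Brg1 were LINC00960 (14.4 and 14.4 rpm with Brg1, 0.70 and 2.31 with Sfpq), LINC00513 and LINC01128 (16.9 and 15 against 1.68 and 1.90). Those towards Sfpq were LINC01374 (log2 difference -3.18), LINC01597 (-2.59) and LINC00106 (-1.48). On plain rows LINC00854 (2.04), LINC00662 (1.25) and LINC01572 (1.19) lay towards Brg1, and LINC00641 (-3.14), LINC01547 (-1.81) and LINC01001 (-1.56) towards Sfpq. LINC00641 was at 12.6 and 14.3 rpm with Sfpq and at 1.68 and 0 rpm with Brg1.

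The plain ratio of reads on a gene's .primary row to those on its other row does not depend on how the library was scaled. The tested ratio had 1 rpm added to each row, so for rows near that level it does depend on the library total. The row of LINC01106 without the suffix, at 0.942 and 0 rpm with Brg1 in LNCaP, was such a row. In 22Rv1, 20 members had both rows, and 9 had a higher ratio with Brg1 than in input and 1 a lower one, where 66.9% of all genes with both rows were called higher and 0.764% lower. The member median of the log2 ratio difference was 0.57, against 1.10 over all such genes. With Sfpq none of the 20 was called with a higher ratio (limma, 1 at an unadjusted p under 0.05) and 8 were called with a lower one, where 9.79% of all genes were called higher and 57.1% lower. In LNCaP 12 of 32 members had a higher ratio with Brg1 and 1 a lower one, where 13.6% were called higher and 0.851% lower. The LNCaP count of 13 genes was 2 with the library letter as a block or without input library B, 5 without input library A and 8 without Brg1 library B.

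LINC00467 had the largest ratio change in 22Rv1. Its .primary row held 89.7% and 88.4% of its reads with Brg1, against 45.2% and 55.5% in input and 50.4% and 65.6% with Sfpq (log2 ratio difference of Brg1 from input 2.72 ± 0.33 SE, adjusted p = 2.12e-07). In LNCaP the same share was 83.8% and 86.5% with Brg1 and 57.0% and 50.7% in input (adjusted p = 5.48e-05). LINC01128 went from 21.6% and 14.9% in input to 55.5% and 51.8% with Brg1, and was at 6.09% and 7.49% with Sfpq. LINC01278 went from 43.7% and 43.9% to 76.6% and 76.9% with Brg1. In LNCaP the largest changes were in LINC01106 (73.3% and 83.9% in input, 98.5% and 100% with Brg1) and LINC02197 (93.8% and 91.2%, 98.6% and 99.2%). The Brg1 libraries lay above the inputs for all of these genes.

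LINC00910 was the exception with Brg1 in 22Rv1. The level of its .primary row was nevertheless called higher with Brg1 than in input in both lines. The log2 difference was 1.20 in 22Rv1 (limma adjusted p = 0.000327) and 1.44 in LNCaP (3.55e-06). Its .primary row held 28.2% and 39.8% of its input reads, 16.7% and 19.5% with Brg1 (log2 ratio difference -1.23 ± 0.31 SE, adjusted p = 0.00129) and 9.04% and 9.99% with Sfpq (-2.19, adjusted p = 3.65e-06). In LNCaP it went from 25.4% and 28.5% to 15.9% and 11.7%, which missed the threshold (adjusted p = 0.0911). LINC00680 had the lower ratio in LNCaP, with 60.9% and 87.2% in input and 41.9% and 49.4% with Brg1 (adjusted p = 0.00659). LINC00265 fell with Sfpq from 84.8% and 77.4% to 57.9% and 66.3%. Among members with both rows in both lines, the .primary share of input reads was alike in the lines for some genes and not for others. LINC01572 held 94.1% and 93.0% in 22Rv1 and 92.9% and 94.6% in LNCaP, and LINC00174 held 18.3% and 14.1%, and 19.0% and 18.8%. LINC00641 held 84.0% and 91.9% in 22Rv1 and ran from 74.8% to 96.2% between the LNCaP inputs, and LINC02210 held 17.8% and 15.6%, and 26.3% and 24.4%.

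**Figure D4:**
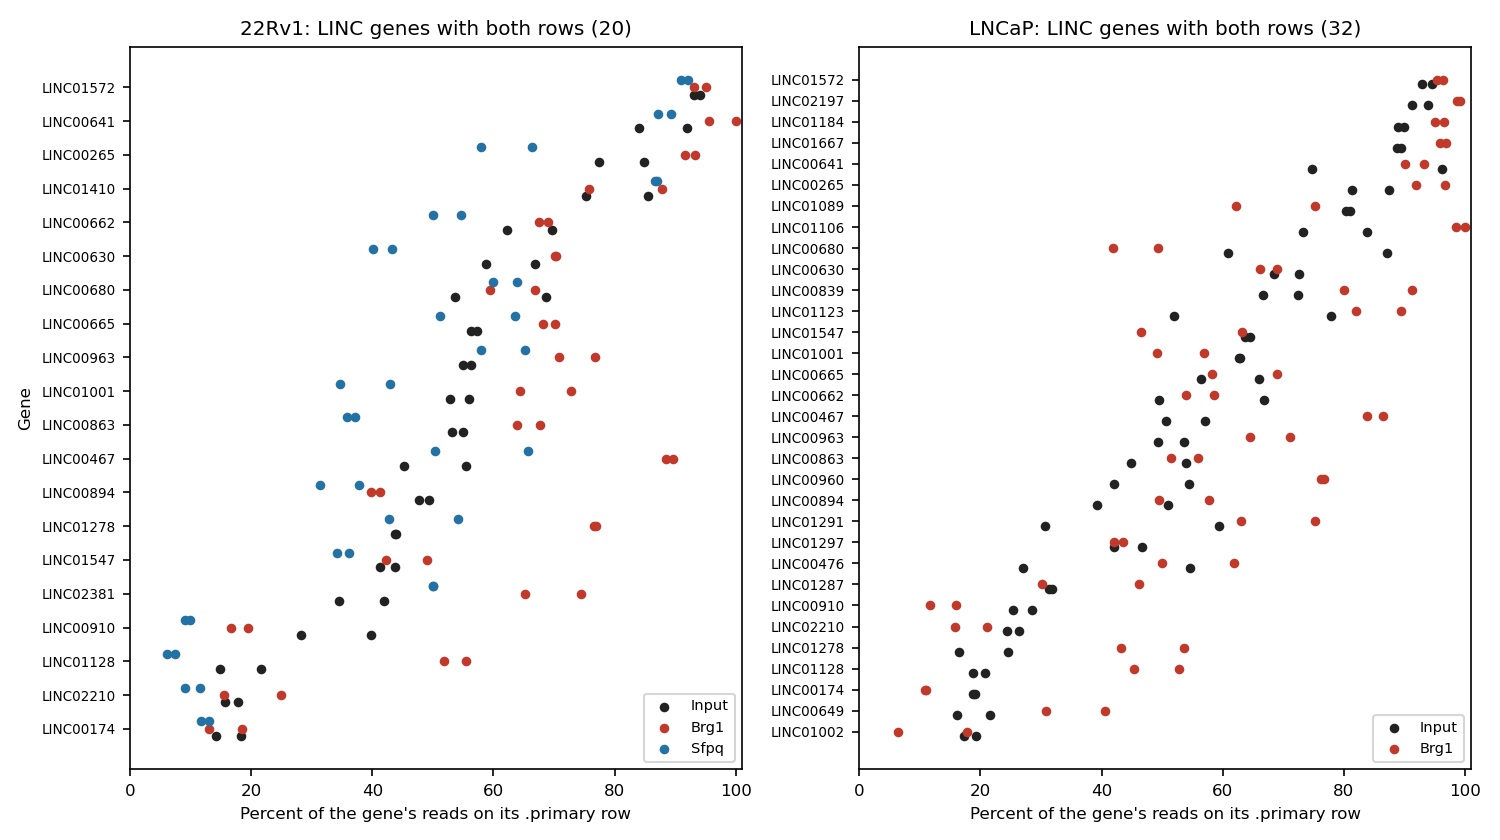
Percent of a gene's reads that fall on its .primary row (horizontal) for the 20 members with both rows in 22Rv1 (left) and the 32 in LNCaP (right), ordered by their input mean; each point is 1 library. LINC00467 moves from 45.2% and 55.5% in 22Rv1 input to 89.7% and 88.4% with Brg1, and LINC00910 moves the other way.

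Non-specific IgG recovered a few members in bulk. For most others it overlapped input in 22Rv1 and was hardly detected in LNCaP. In 22Rv1 the median level of the .primary rows was 13 rpm with IgG and 7.78 rpm in input, and 86 of 122 .primary rows overlapped input, 13 lay above it in every IgG library and 23 below. Overlap with IgG was not counted over all .primary rows, so these counts do not set the members apart. Only 13 of 122 .primary and 5 of 36 plain rows had no more than 3 reads in any 22Rv1 IgG library. LINC01184.primary was at 2184, 2439 and 703 rpm with IgG in 22Rv1 against 49.8 and 45.2 in input (log2 difference 5.00, adjusted p = 0.00113), and LINC01374.primary differed from input by 5.55 (adjusted p = 0.000325). They were the 2 member rows called higher. In all, 2 of the 158 member rows were higher and 17 lower, where 0.124% of all rows were called higher and 6.96% lower. The 17 lower rows had at most 5 reads in any IgG library. In the same comparison edgeR on shares called no member row (21 at an unadjusted p under 0.05), nor did edgeR with TMM (20), and DESeq2 called 3. In LNCaP LINC01184.primary gave 521 and 779 IgG reads, which is 73.7% and 62.6% of all .primary member reads there. LINC00486.primary was at 2712, 734 and 55.0 rpm with IgG in 22Rv1 against 13.1 and 13 in input (adjusted p = 0.0807), and it was named after its values were seen. In LNCaP it was at 992 and 1166 rpm with IgG (22 and 54 reads) against 15.5 and 17.5 in input. Against input it was also called higher with Brg1, by 0.73 in 22Rv1 (limma adjusted p = 0.00372) and 1.13 in LNCaP (0.000233). LINC00486.primary made up 34.2% of the .primary member reads of 22Rv1 IgG library A, and LINC01374.primary made up 38.8% of those of 22Rv1 IgG library C. In LNCaP 89 of 126 .primary and 42 of 44 plain member rows had no more than 3 reads in any IgG library, so the IgG level of most members was not detectable at this depth.

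LINC01184.primary was also called higher with Brg1. In 22Rv1 it was at 121 and 113 rpm with Brg1 against 49.8 and 45.2 in input (log2 difference 1.28, adjusted p = 4.01e-06), in LNCaP at 100 and 130 against 66.6 and 63.7 (0.80, adjusted p = 0.0104), and with Sfpq it was at 33.2 and 44.3 rpm (adjusted p = 0.11). Its IgG level was far above its Brg1 level in both lines. All comparisons with input in a line share the same 2 input libraries.

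Of 15 LINC genes listed for what is known of them, 4 were members, and the others either lacked a row in one table or lacked a row in both. LINC01578, the RNA also called CHASERR, which restrains its neighbour CHD2, was lower with Brg1 on its plain row in both lines, at 13.6 and 8.26 rpm against 26.1 and 20.7 in 22Rv1 and at 7.69 and 4.47 against 11.8 and 15.2 in LNCaP. With Sfpq it was at 20.6 and 15.8 rpm (adjusted p = 0.198). LINC00963 was lower on its plain row in both lines, at 9.45 and 8.20 rpm against 18.4 and 16.7 in 22Rv1 and at 46.2 and 46.2 against 77.4 and 80.5 in LNCaP, and its .primary row was not called in either (adjusted p = 0.396 and 0.548). LINC00467 was lower on its plain row and higher on its .primary row in both lines. LINC00511, with only a .primary row, was higher with Brg1 in 22Rv1 (77.4 and 70.4 rpm against 23.6 and 19.4, 3.43-fold) and in LNCaP (19.2 and 22.4 against 11.2 and 7.86, 2.18-fold), and with Sfpq as well (40.9 and 48.3 rpm, 2.07-fold).

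By name, 120 of the 138 members matched a RefSeq symbol and 17 others a synonym, and 136 of these were annotated as long noncoding RNA. The members with a .primary row spanned a median of about 69720 bases in 22Rv1, and those with a plain row about 15250. Span and the Brg1 difference of the .primary rows had Spearman's rho = 0.269 across 121 genes in 22Rv1 and 0.172 across 125 in LNCaP, with medians of 1.0 for the shorter and 1.19 for the longer 22Rv1 genes. Windows of 250 bases before to 50 after the start were given for 97 members, with a median GC content of 55.7%, against 58.3% over 27305 genes.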

How the data were processed

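Processed tables of RNA immunoprecipitation sequencing were used, 1 per cell line, with 15 libraries in all. The authors deposited a signal (normalized counts), and every value is a whole multiple of 1 factor per library within 0.001 read. How the authors chose the factors is not given in the sources used here. The submitters' processing notes name STAR 2.6, Salmon 0.8.2, deepTools 2.5.2 and DESeq2 with no roles. Values were divided by the smallest positive value of the library, and the recovered reads scaled to 1000000. Tests used limma 3.58.1 (lmFit, eBayes with trend, R 4.3.3) on log2(rpm + 1), on rows with a mean of at least 1 rpm, with Benjamini-Hochberg adjustment over all rows. All member rows passed that filter. The Brg1, Sfpq and input libraries of 22Rv1 shared a fit, as did Brg1 and input of LNCaP. IgG of 22Rv1 was fitted with input alone, and IgG of LNCaP was described only. The pseudocount makes log2 differences of low rows too small, and folds are ratios of mean rpm. Totals and shares carry counting error only, since copies made by PCR were not told apart by molecular identifiers. Named rows were, per comparison, kind and direction, up to 3 called rows with the largest difference, non-overlapping libraries and at least 50 reads in the higher group. Also named were the 5 most abundant input rows of each kind, the 3 largest and smallest .primary shares, the 4 largest gaps in input between lines each way, the listed genes and the largest ratio changes. Members, lists and tests were chosen with earlier results of these data known. The scripts were tested on simulated data. Alternatives used edgeR 4.0.16, DESeq2 1.42.0, other scalings, filters and pseudocounts, and left out libraries.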

Additional observations from a re-analysis of the deposited data

How the results depend on the processing

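With 2 libraries a group, leaving out 1 library could change a count widely, as leaving out either input library did in LNCaP. Such a refit keeps 1 library in the group and less information on the spread, which was not told apart from a trait of the library left out. Counts of called member rows were 126 for Brg1 against input in 22Rv1, 48 for Sfpq, 129 for Brg1 against Sfpq, 19 for IgG and 78 for Brg1 in LNCaP, and counts of called ratios were 10, 8 and 13. Under the authors' scaling Brg1 and Sfpq against input in 22Rv1 had 37 and 26, and IgG had 157. With each kind of row divided by its own total, Brg1 against input in 22Rv1 had 81 and Brg1 against Sfpq 79. With the IgG libraries in the fit, 0 rows were called for Brg1 or Sfpq against input in either line (limma), 6 for Brg1 against Sfpq and 0 for each ratio (1, 0 and 4 genes at an unadjusted p under 0.05). IgG calls were 2 with a filter of 5 rpm, 0 and 0 with edgeR on shares and on TMM, and 3 with DESeq2. Left-out libraries gave 102 to 129 for Brg1 and 32 to 48 for Sfpq against input in 22Rv1, 122 to 128 for Brg1 against Sfpq, 13 to 35 for IgG and 14 to 82 for Brg1 in LNCaP. They gave 7 to 11, 6 to 9 and 2 to 13 called ratios. IgG reached 35 without IgG library A and 33 without IgG library C, and the causes of these moves were not tested.

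The labels do not say whether library letters pair the samples. Over all rows, deviations of same-lettered Brg1 and input libraries correlated at 0.015 in 22Rv1 and -0.354 in LNCaP. Over the member rows the values were 0.111 and -0.165. Such correlations cannot tell whether the libraries were prepared in pairs. With the letter as a replicate block the LNCaP counts were 29 rows and 2 ratios, and in 22Rv1 123, 46, 131 and 22 rows and 9 and 7 ratios. With the LNCaP letters crossed, an alternative chosen after seeing the data, the counts were 102 rows and 18 ratios.

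Of 1745 refits of named rows called in the main analysis 10 changed sign, and of 905 refits of named rows not called 66 did. These totals overstate stability, because many of these refits could not change a sign. Adding the IgG libraries, changing the filter or leaving out a library of a group outside the comparison left the difference as it was. For called rows, the 10 changes were 7 of 84 comparisons under the authors' scaling and 3 of 84 with totals by kind of row. For rows not called, these settings gave 19 of 42 and 17 of 42. Of the rows not called, values are given here for some only. Under the authors' scaling, Brg1 against input in LNCaP turned to -0.28 for LINC00467.primary, -0.23 for LINC00511.primary, -0.11 for LINC00662, -0.64 for LINC01004.primary, -0.45 for LINC01090.primary, -0.57 for LINC01184.primary and -0.002464 for LINC01194.primary. Among rows not called it turned to -1.15 for LINC00963.primary, -1.12 for LINC01374.primary and -0.81 for LINC01572.primary. In 22Rv1 it turned to -0.30 for LINC00174, -0.35 for LINC00205, -0.24 for LINC00963.primary and -0.23 for LINC01374.primary, and Sfpq to -0.46 for LINC00963. With totals by kind of row, Brg1 in 22Rv1 turned to 0.10 for LINC01002, 0.039 for LINC02210, -0.38 for LINC02340.primary, -0.62 for LINC00963.primary and -0.61 for LINC01374.primary. In LNCaP it turned to 0.11 for LINC00665, -0.30 for LINC00963.primary and -0.27 for LINC01374.primary, and Sfpq to 0.034 for LINC00513.primary and -0.072 for LINC00963. Over the left-out libraries LINC00665.primary in LNCaP ran from -0.48 (without Brg1 B) to 0.038 (without Brg1 A), and LINC00205 with Brg1 in 22Rv1 from -0.015 (without Brg1 A) to 0.15 (without Brg1 B). With Sfpq, LINC00513.primary ran from -0.55 (without input A) to 0.11 (without input B), and LINC00963 from -0.011 (without input B) to 0.12.

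The median of the plain member rows relative to all plain rows had no steady sign where it was small. For Sfpq it was -0.06, and ran from -0.19 without input B to 0.10 without Sfpq A. For Brg1 in LNCaP it was 0.10, and left-out libraries gave -0.13 (without Brg1 B), -0.01 (without input B) and up to 0.20 (without Brg1 A). For IgG it was -0.08, and 0.20 with a pseudocount of 5, 0.24 with a filter of 5 rpm, 0.54 under the authors' scaling, 0.13 with the replicate block, 0.10 and 0.22 with edgeR on shares and TMM, and 0.12 with DESeq2, while left-out libraries gave -0.23 (without input B) to 0.13 (without IgG C), with 0.06 without input A.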

Other observations

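Among the rows in both tables, LINC00235 was the only one whose Brg1 libraries all lay above input in 22Rv1 (8.46 and 9.39 rpm against 8.0 and 6.67) and all below input in LNCaP (15.4 and 17.9 rpm against 18.6 and 20.4). Neither difference passed the test (limma adjusted p = 0.347 and 0.569), the difference between the lines was not tested, and the row was named after its values were seen. It was also the plain member row with the most reads in LNCaP IgG library B, with 11 reads.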
